A study of Arabidopsis thaliana with 18 samples.

Results

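The genes described here were lower under hypoxia than in air in wild type Arabidopsis rosettes and higher under hypoxia than in air in rosettes of the 35S::HA::RAP2.12 line. Probe sets were selected on these same arrays: one was taken when the mean of the 3 wild type hypoxia arrays lay at least 0.7 below the wild type air mean on the log2 scale, and the mean of the 3 HA-RAP2.12 hypoxia arrays at least 0.7 above the air mean of that line (0.7 is a 1.62-fold difference). Of 22746 probe sets, 70 met both limits, and 67 were kept after STZ, AT3G01830 and AT2G41730 were set aside. Genes with a PUB name (plant U-box proteins) were to be left out as well, but the gene table gives no such name to any of the 70. AT5G61560, a U-box protein kinase family gene without a PUB name in that table, was kept. The 2 limits were met singly by 1579 probe sets in wild type and by 1614 in HA-RAP2.12, and 5 probe sets met the same limits in the opposite directions. Of the 67 members, 35 probe sets name 1 gene each, for 34 distinct genes, 1 names several genes and 31 have no gene in the annotation used. The differences that chose the members are descriptions here, and fit counts on those arrays support nothing.

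Whole rosettes of 5-week-old Columbia 0 plants, grown with 8 h of light and 16 h of darkness, spent 1.5 h in darkness at 22 °C under 1% oxygen (hypoxia) or 21% oxygen (air). The 18 arrays hold 3 replicates of each of 6 groups: 35S::HA::RAP2.12 under hypoxia and in air, 35S::amiRAP2.2-12 under hypoxia and in air, and wild type under hypoxia and in air. Darkness during the treatment is shared by all 6 groups. HA-RAP2.12 is the transcription factor RAP2.12 with an HA tag in front of it, and amiRAP2.2-12 is an artificial microRNA named for RAP2.2 and RAP2.12. Both were driven by the 35S promoter, which is active in most plant tissues. The labels name neither the number of independent lines nor whether replicates were separate plants or pools, so the errors describe the spread between these arrays, which may be technical. RAP2.12 and RAP2.2 are not named in the probe annotation used here, so their own levels were not checked. The number of arrays limits the precision of every value.

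RAP2.2 and RAP2.12 belong to the group VII ethylene response factors, which carry an N-terminal sequence that oxygen marks for degradation, so that the proteins persist when oxygen is low and switch on fermentation and other low-oxygen genes. A tag in front of the RAP2.12 protein hides that N-terminus. Another set of plant genes, with receptor kinases, calcium-binding proteins, small secreted peptides and cell wall enzymes among them, is known for transcripts that come up within minutes of wounding, touch or microbial elicitors. Bulk rosettes were measured, so fewer cells with a transcript and less transcript per cell cannot be told apart.

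Among the members the median of the group means under hypoxia and in air was 7.86 and 6.30 for HA-RAP2.12, 6.93 and 7.05 for amiRAP2.2-12, and 6.36 and 7.69 for wild type, as log2 values. The median difference, hypoxia minus air, was 1.66 in HA-RAP2.12 (range 0.70 to 3.85), 0.12 in amiRAP2.2-12 (-2.93 to 1.51) and -1.21 in wild type (-4.24 to -0.71). The median difference over all probe sets was 0.00 in each of the 3 genotypes. In the limma fit 53 members were called higher under hypoxia in HA-RAP2.12 (10.4% of all probe sets) and 43 lower in wild type (10.3%), at an adjusted p under 0.05. Both counts follow from how the members were chosen and say nothing further about them. The wild type count was 28 without air replicate 1 and 27 without air replicate 2, with 1883 and 2002 of all probe sets called lower in those fits.

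**Figure D1:**
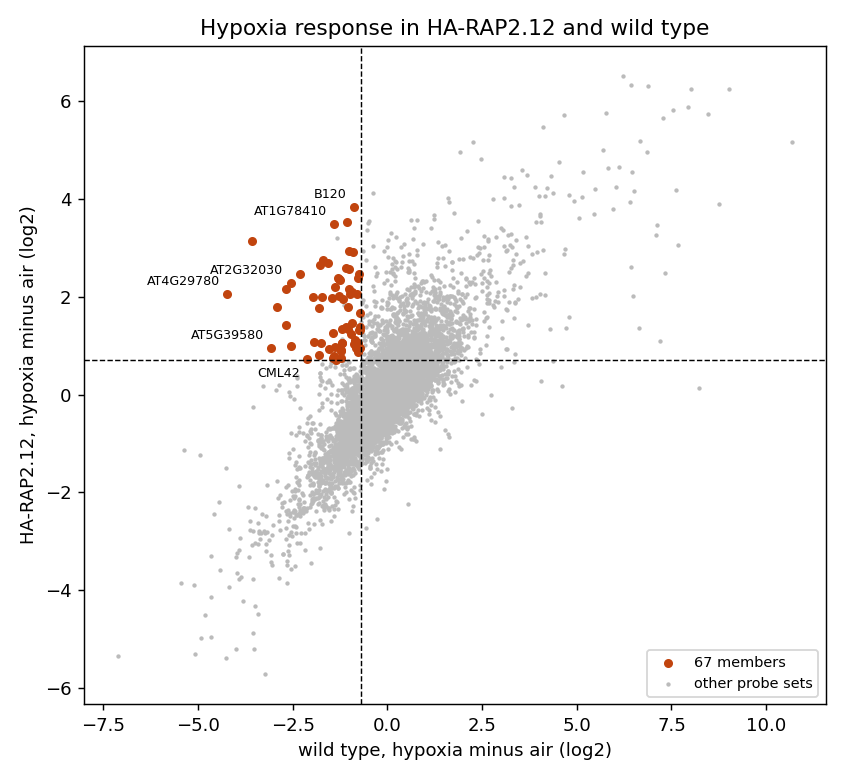
Hypoxia minus air on the log2 scale in HA-RAP2.12 (vertical axis) against wild type (horizontal axis), 1 point per probe set, with the 67 members in colour and the limits of 0.7 as lines. The members fill the upper left corner, down to -4.24 in wild type and up to 3.85 in HA-RAP2.12.

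The limits divide a continuum. Just inside the wild type limit lay AT4G36500 and 2 probe sets without a gene name, all at -0.71, and just outside it lay AT1G58420, at -0.699 in wild type and 1.60 in HA-RAP2.12. Just inside the HA-RAP2.12 limit lay AT4G40080 (0.70), CML42 and AT1G51270 (0.74 each), and just outside it lay rpoB, at 0.69 in HA-RAP2.12 and -1.04 in wild type. A member that is near the limit in 1 genotype can be far past it in the other: AT4G40080 differed by -1.34 and CML42 by -2.11 in wild type. Signal was low for few members: 56 had every group mean at 4 or above, and 2 had a group mean under 2.5, a level taken here as background, with 35.4% of all values under it.

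Receptors and kinases were led by B120 (AT4G21390), a lectin receptor kinase of the cell surface. B120 stood at 8.16, 8.03 and 8.16 under hypoxia in HA-RAP2.12, against 5.05, 3.49 and 4.27 in air in that line. B120 in wild type stood at 5.28, 4.88 and 4.60 under hypoxia, against 5.52, 5.81 and 6.07 in air. Its HA-RAP2.12 arrays were nearly equal under hypoxia and scattered in air, while the wild type arrays of the 2 conditions lay close together without overlapping. The differences, hypoxia minus air, were 3.85 ± 0.54 in HA-RAP2.12 and -0.88 ± 0.54 in wild type (log2 ± SE of the fit, n = 3 arrays per group here and below). Each SE rests on 1 spread per probe set, shared by all 6 groups, and not on the 2 groups compared alone. For B120 the SD was 0.34 under hypoxia and 0.27 in air in wild type, but 1.38 under hypoxia in amiRAP2.2-12. AT1G72920, which encodes a protein with the TIR and nucleotide-binding domains of plant immune receptors, gave more of its contrast in wild type. AT1G72920 stood at 8.24, 7.26 and 8.08 under hypoxia in HA-RAP2.12, against 6.28, 5.96 and 7.05 in air in that line. AT1G72920 in wild type stood at 6.13, 6.001 and 5.99 under hypoxia, against 8.90, 8.49 and 8.77 in air. The wild type air arrays were the highest of these 12 and the wild type hypoxia arrays among the lowest. The protein kinase gene AT1G11050 differed by 1.06 ± 0.25 in HA-RAP2.12 and -1.75 ± 0.25 in wild type.

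Calcium-binding proteins were 4 of the named members: the calmodulin-like CML42 (AT4G20780), the EF-hand proteins AT5G39670 and AT4G27280, and the C2-domain protein AT4G34150. CML42 stood at 7.69, 7.77 and 8.02 under hypoxia in HA-RAP2.12, against 7.09, 7.01 and 7.17 in air in that line. CML42 in wild type stood at 6.36, 6.28 and 6.02 under hypoxia, against 8.47, 8.27 and 8.26 in air. Both wild type groups were tight and far apart, and the HA-RAP2.12 groups were closer together. AT5G39670 had the largest HA-RAP2.12 difference of the 4, with 6.36, 4.57 and 5.61 under hypoxia against 3.79, 3.70 and 3.07 in air. In wild type the same gene had 3.32, 4.06 and 3.37 under hypoxia against 5.79, 5.47 and 5.34 in air. Over the 4 genes the differences ran from 0.74 to 2.00 in HA-RAP2.12 and from -2.11 to -0.84 in wild type.

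Secreted peptides and cell surface proteins were 7. AT4G37290, which encodes a precursor of a small secreted peptide induced by microbial patterns, was at 6.69, 5.43 and 6.71 under hypoxia in HA-RAP2.12, against 3.59, 3.60 and 3.59 in air. Its wild type values were 4.10, 3.85 and 4.98 under hypoxia, against 5.72, 5.95 and 5.92 in air. The 2 groups with high AT4G37290 were thus HA-RAP2.12 under hypoxia and wild type in air. The same arrangement held for AT1G24140, a matrix metalloproteinase gene. AT1G24140 stood at 7.46, 6.41 and 7.003 under hypoxia in HA-RAP2.12, against 4.34, 3.92 and 4.36 in air in that line. AT1G24140 in wild type stood at 4.58, 4.74 and 4.67 under hypoxia, against 6.22, 6.36 and 6.51 in air. The peptide genes AT3G10930 and AT5G05300, related to the abscission peptide IDA, differed by 2.17 ± 0.55 and 2.10 ± 0.67 in HA-RAP2.12, and by -1.02 ± 0.55 and -0.92 ± 0.67 in wild type.

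AT5G39580, a class III peroxidase gene, was arranged differently from its group. AT5G39580 stood at 6.86, 7.11 and 6.91 under hypoxia in HA-RAP2.12, against 6.57, 4.84 and 6.63 in air in that line. AT5G39580 in wild type stood at 2.85, 2.89 and 2.83 under hypoxia, against 5.95, 5.81 and 6.02 in air. HA-RAP2.12 minus wild type in air was only 0.09, and nearly all of the contrast came from the wild type hypoxia arrays, which lay just above background. Its difference in HA-RAP2.12, 0.94 ± 0.66, was 0.36 without the low air replicate 2. AT3G04640, a glycine-rich protein gene, was the reverse case, with HA-RAP2.12 air arrays at 7.75, 7.10 and 7.74 against wild type air arrays at 9.71, 9.92 and 9.76. Under hypoxia AT3G04640 stood at 10.34, 9.68 and 9.99 in HA-RAP2.12 and at 9.002, 8.998 and 9.15 in wild type, a smaller gap. AT4G22470, of the lipid-transfer protein family, was dim: 5.19, 5.60 and 4.18 under hypoxia in HA-RAP2.12, against 2.72, 3.05 and 3.05 in air, and 2.18, 2.18 and 2.35 under hypoxia in wild type, against 3.05, 3.05 and 3.55 in air. The wild type hypoxia arrays lay at background (under 2.5), so the wild type difference of -0.98 is a lower limit in size.

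Regulators were few. AT1G78410 encodes a VQ-motif protein, a family that binds WRKY transcription factors. AT1G78410 stood at 8.19, 7.85 and 8.44 under hypoxia in HA-RAP2.12, against 4.92, 4.38 and 4.72 in air in that line. AT1G78410 in wild type stood at 5.28, 5.45 and 5.41 under hypoxia, against 6.72, 6.77 and 6.87 in air. All 3 HA-RAP2.12 hypoxia arrays were above all other arrays of these 2 genotypes. AT4G29780, which encodes a protein related to transposases, had the largest wild type difference of all members. AT4G29780 stood at 9.37, 6.55 and 6.86 under hypoxia in HA-RAP2.12, against 5.47, 5.26 and 5.87 in air in that line. AT4G29780 in wild type stood at 4.95, 4.78 and 5.10 under hypoxia, against 9.31, 9.12 and 9.12 in air. Wild type arrays agreed closely within each condition, but in HA-RAP2.12 hypoxia replicate 1 was far above the other 2 arrays. Without it the AT4G29780 difference in that line was 1.17 in place of 2.06. The ankyrin-repeat gene AT2G24600 differed by 1.07 ± 0.33 in HA-RAP2.12 and by -1.92 ± 0.33 in wild type.

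Enzymes, transport and trafficking genes were 7, among them the acetyltransferase-family gene AT2G32030. AT2G32030 stood at 6.84, 6.48 and 7.12 under hypoxia in HA-RAP2.12, against 4.48, 4.44 and 4.66 in air in that line. AT2G32030 in wild type stood at 4.57, 4.64 and 4.15 under hypoxia, against 6.90, 7.21 and 6.91 in air. HA-RAP2.12 in air and wild type under hypoxia shared a low level of this gene, as HA-RAP2.12 under hypoxia and wild type in air shared a high one. The methyltransferase-family gene AT3G54150 stood at 7.20, 6.95 and 7.21 under hypoxia in HA-RAP2.12, against 4.73, 4.28 and 4.37 in air, and at 4.50, 3.73 and 4.60 under hypoxia in wild type, against 6.57, 5.90 and 5.73 in air. AT3G51660, related to macrophage migration inhibitory factor of animals, and AT5G35735, a DOMON-domain membrane protein gene, differed by 1.96 ± 0.31 and 2.37 ± 0.31 in HA-RAP2.12, and by -1.17 ± 0.31 and -1.27 ± 0.31 in wild type. The glycosyltransferase gene AT3G09020 and AT4G40080, for a clathrin adaptor, differed by 1.39 ± 0.35 and 0.70 ± 0.37 in HA-RAP2.12, and by -1.09 ± 0.35 and -1.34 ± 0.37 in wild type. The MATE transporter gene AT3G23550 had among the highest signals, with 11.28, 11.68 and 11.67 under hypoxia against 10.35, 10.71 and 10.80 in air in HA-RAP2.12. AT3G23550 in wild type had 10.13, 10.13 and 10.20 under hypoxia, against 11.33, 11.45 and 11.38 in air.

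**Figure D2:**
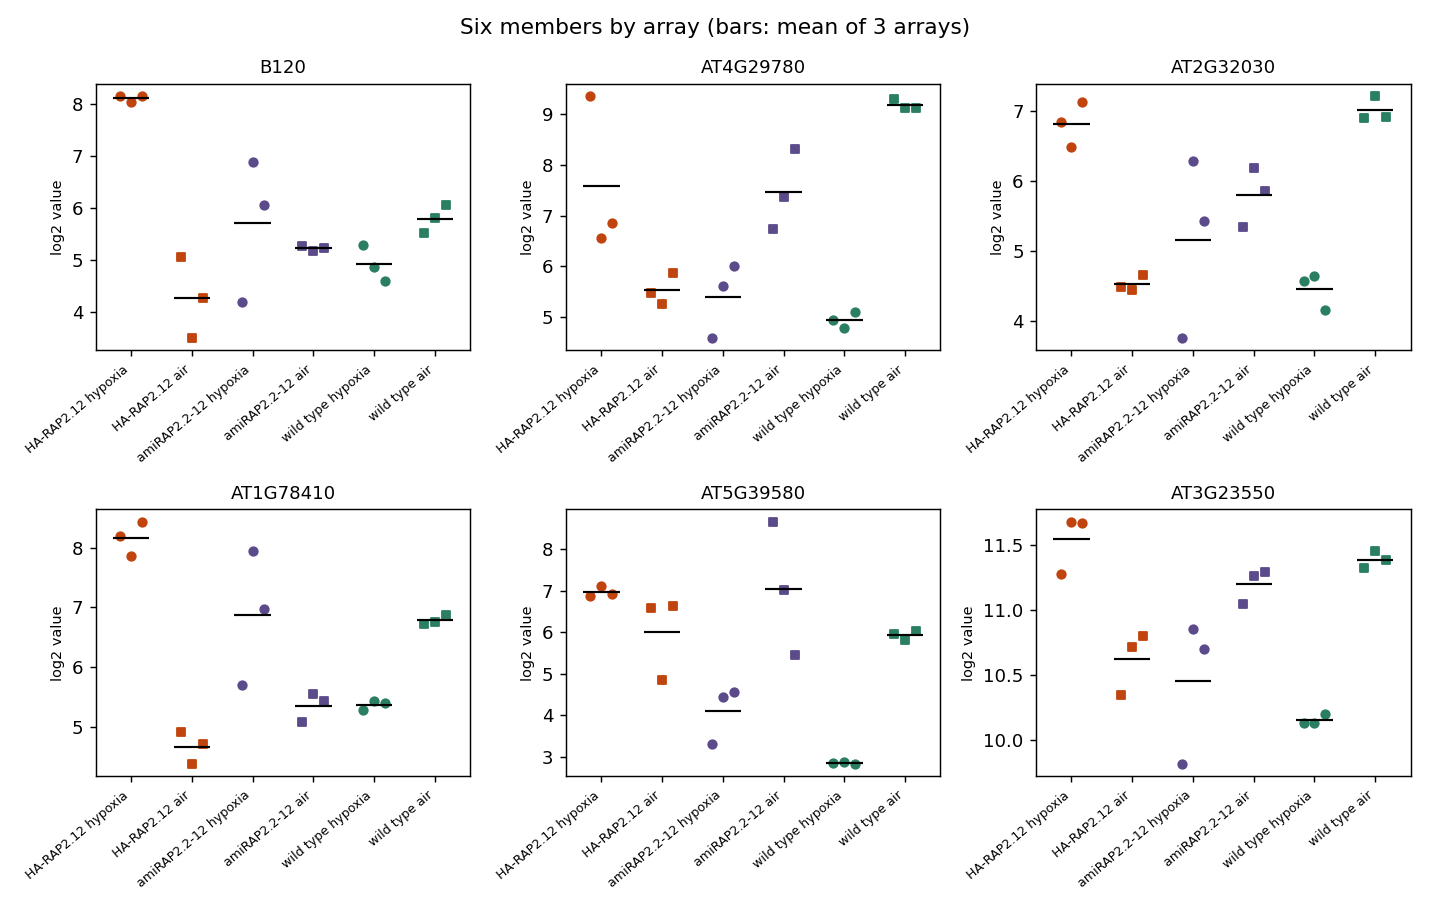
Log2 value of 6 members on each of the 18 arrays, 1 panel per gene, groups along the horizontal axis, points for arrays and bars for means of 3 arrays. HA-RAP2.12 lies above wild type under hypoxia in each panel, and the amiRAP2.2-12 hypoxia arrays scatter widely, as with B120 at 4.20, 6.89 and 6.05.

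The 11 remaining probe sets with 1 gene name were put in no role group. Among them AT1G28190 stood at 7.88, 7.76 and 7.84 under hypoxia in HA-RAP2.12, against 5.25, 5.19 and 5.35 in air, and at 5.12, 4.997 and 5.41 under hypoxia in wild type, against 6.21, 6.47 and 5.84 in air. AT1G35210 had large differences in both, 1.79 ± 0.86 in HA-RAP2.12 and -2.91 ± 0.86 in wild type. AT1G05575 and AT3G57450 differed by 2.01 ± 0.30 and 1.32 ± 0.22 in HA-RAP2.12 and by -1.26 ± 0.30 and -0.73 ± 0.22 in wild type. The others were AR781, AT1G23710, AT4G36500, AT4G24380, AT5G61560 and both probe sets of AT1G51270. The first of those differed by 0.74 in HA-RAP2.12 and -1.42 in wild type, the other by 0.90 and -1.21. AT5G61560, left out of the receptors and kinases above though of a kinase family, differed by 0.86 ± 0.32 in HA-RAP2.12 and -0.76 ± 0.32 in wild type. The 32 members without a single gene name ran from 0.75 to 3.53 in HA-RAP2.12 and from -3.56 to -0.71 in wild type, about as widely as the named ones.

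The choice of members fixes that HA-RAP2.12 minus wild type is higher under hypoxia than in air, by at least the sum of the 2 limits, but not how that gap divides between the conditions. HA-RAP2.12 minus wild type had a median of 1.66 under hypoxia (0.59 to 4.10) and -1.39 in air (-3.68 to 0.09, the lowest being a lower limit in size for a probe set at background in HA-RAP2.12 air), with 67 of 67 members above 0 under hypoxia and 65 below 0 in air. A difference of at least 0.7 was present under hypoxia and in air for 53 members, under hypoxia alone for 12 and in air alone for 2. The hypoxia difference was the larger in size for 45 members and the air difference for 22. For these arrays, which also chose the members, the fit called 43 members higher in HA-RAP2.12 than in wild type under hypoxia (2.09% of all probe sets) and 14 lower in air (0.365%), and nothing is read from either count. Leaving out 1 array moved the air count to between 1 and 33 and the hypoxia count to between 27 and 59. Over all probe sets the counts in those fits were 27 and 255 in air, and 213 and 844 under hypoxia.

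At the hypoxia end were AT5G39580, with HA-RAP2.12 minus wild type at 4.10 ± 0.66 under hypoxia and 0.09 ± 0.66 in air, AT1G28190 (2.65 and -0.91) and B120 (3.20 and -1.53), together with AT4G22470, where the hypoxia difference is at least 2.76 since wild type under hypoxia was at background. At the air end were AT3G10930, with 0.87 ± 0.55 under hypoxia and -2.31 ± 0.55 in air, AT3G04640 (0.95 and -2.27) and AT1G23710 (0.59 and -1.67). AT4G29780 was far apart in both, with 2.65 ± 0.63 under hypoxia and -3.65 ± 0.63 in air. The secreted peptide and cell surface genes therefore held examples of both ends. HA-RAP2.12 under hypoxia minus wild type in air had a median of 0.30 (-1.59 to 2.35), with 50 members above 0 and 17 below. It lay within 1 for 54 of 67 members, and the share of all probe sets within 1 was not counted. Wild type under hypoxia minus HA-RAP2.12 in air had a median of -0.09 but ranged from -3.16 to 1.80. amiRAP2.2-12 in air lay between HA-RAP2.12 in air and wild type in air for 57 members. The choice of members favours a high wild type and a low HA-RAP2.12 mean in air, so nothing is read from that count.

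**Figure D3:**
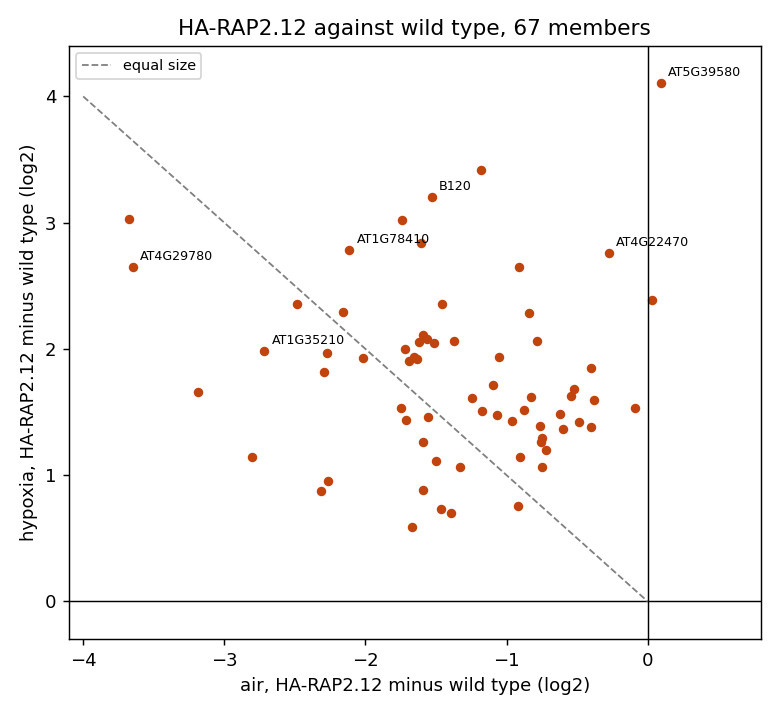
HA-RAP2.12 minus wild type on the log2 scale under hypoxia (vertical axis) and in air (horizontal axis), 1 point per member. Most points lie to the left of 0 and above 0 at once, AT5G39580 stands alone at the top right (0.09 in air, 4.10 under hypoxia), and AT4G29780 lies far left at -3.65.

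The 6 amiRAP2.2-12 arrays were not used to choose the members, so their own comparison can be tested. Under hypoxia 1 member rose in this line, AT1G78410, and 3 fell, AT5G39580, AT4G29780 and AT3G23550 (limma with Benjamini-Hochberg adjustment over 22746 probe sets, adjusted p under 0.05). That is 4 of 67, against 16.3% of all probe sets called in either direction, 8.04% higher and 8.27% lower. At an unadjusted p under 0.05 the members counted 6 higher and 7 lower, and all 22746 probe sets counted 2991 higher and 3078 lower. The members' median difference was 0.12 with 39 above 0 and 28 below, 48 lay within 0.7 of 0, 8 were at 0.7 or above and 11 at -0.7 or below. Arrays did not overlap between hypoxia and air for 2 members that were higher (11.7% of all probe sets) and 4 that were lower (11.5%).

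AT1G78410 in amiRAP2.2-12 stood at 5.70, 7.95 and 6.97 under hypoxia, against 5.09, 5.55 and 5.44 in air. The difference was 1.51 ± 0.40 (adjusted p = 0.0214, limma), and all 3 hypoxia arrays lay above all air arrays. This VQ-motif gene differed by 3.49 in HA-RAP2.12 and -1.41 in wild type. AT5G39580 in amiRAP2.2-12 stood at 3.32, 4.44 and 4.57 under hypoxia, against 8.66, 7.02 and 5.45 in air. The peroxidase gene fell by 2.93 ± 0.66 (adjusted p = 0.00897, limma), beside a difference of -3.07 in wild type. AT4G29780 in amiRAP2.2-12 stood at 4.58, 5.62 and 6.02 under hypoxia, against 6.73, 7.37 and 8.31 in air. AT4G29780 fell by 2.07 ± 0.63 (adjusted p = 0.0415, limma), with all hypoxia arrays below all air arrays.

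AT3G23550 in amiRAP2.2-12 stood at 9.82, 10.85 and 10.70 under hypoxia, against 11.05, 11.26 and 11.30 in air. The transporter gene fell by 0.75 ± 0.22 (adjusted p = 0.0351, limma). Of 27 alternative fits, the call was lost in 1 for AT5G39580, 5 for AT1G78410, 6 for AT3G23550 and 16 for AT4G29780 (adjusted p up to 0.194, limma), and none of the 4 kept it when the amiRAP2.2-12 arrays were fitted alone (adjusted p 0.237 for AT5G39580). The AT1G78410 call was lost without hypoxia replicate 2 (adjusted p = 0.0518, limma), hypoxia replicate 3 or air replicate 1 of this line, and the AT3G23550 call without hypoxia replicate 1 or any of the 3 air replicates. Among members that were not called, amiRAP2.2-12 hypoxia minus air was 1.08 ± 0.54 for AT4G37290, 0.73 ± 0.53 for AT1G24140, 0.49 ± 0.54 for B120, -0.64 ± 0.47 for AT2G32030, -0.83 ± 0.86 for AT1G35210 and -1.11 ± 0.42 for AT1G72920. The 32 members without a single gene name ran from -1.24 to 0.95, and 0 of them were called.

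For 66 of the 67 members the difference in amiRAP2.2-12 lay between that in HA-RAP2.12 and that in wild type. Because the choice of members places those 2 responses far apart, a middle position is where a response near 0 falls. Across members the amiRAP2.2-12 difference had a Pearson r of 0.64 with that in wild type and 0.35 with that in HA-RAP2.12 (n = 67 probe sets, which share arrays and are not replicates). AT5G39580 and AT4G29780 were the lowest of the named members in both amiRAP2.2-12 and wild type.

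The 3 amiRAP2.2-12 hypoxia arrays did not behave alike for these genes. Replicate 2 was the highest of the 3 for 63 of 67 members, against 30.4% of all probe sets (ties at background included) and 42.7% of bright ones, replicate 3 for 4 and replicate 1 for 0. Set against the amiRAP2.2-12 air mean, the members' median was 1.03 on replicate 2, -0.06 on replicate 3 and -0.81 on replicate 1. The median over all probe sets was 0.00 on each, which says little with many values at background. Replicate 2 also stood apart beyond the members. Its array median (5.59) and its weight in the fit with array weights (0.128) were the lowest of the 18 arrays. On the second principal component of bright probe sets it lay at 47.4, against -19.8 to 13.9 on the other arrays. On replicate 2, 60 members were above the air mean and 39 by 0.7 or more. On replicate 1, 59 were below it and 36 by 0.7 or more. The 3 arrays of 1 group therefore covered the range from the wild type direction to the HA-RAP2.12 direction.

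**Figure D4:**
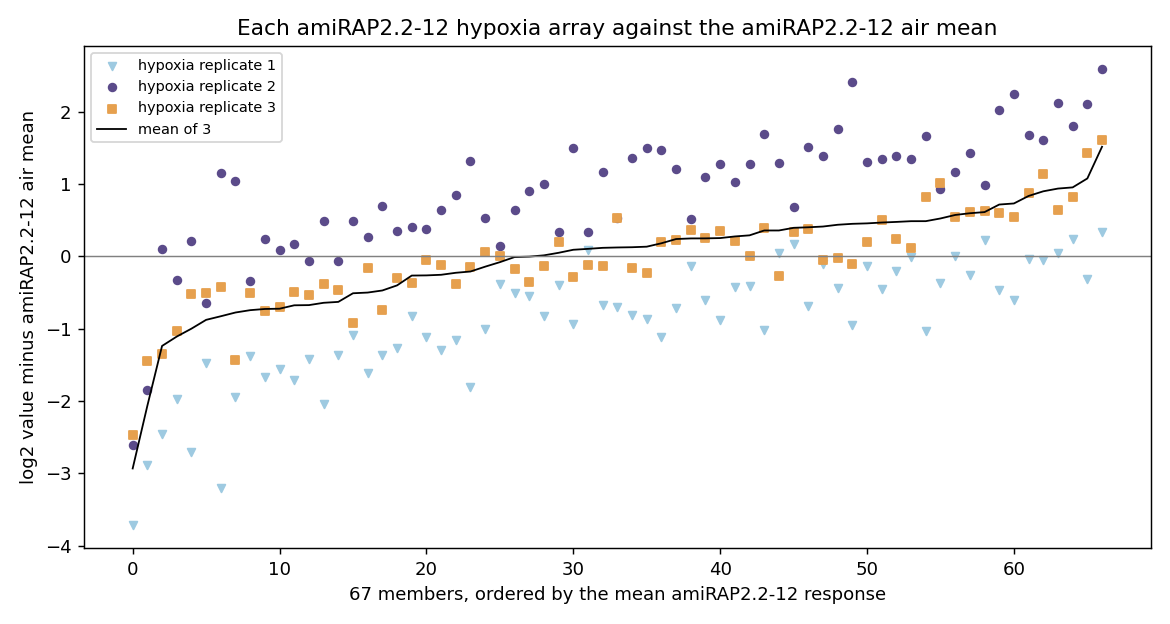
Log2 value on each amiRAP2.2-12 hypoxia array minus the amiRAP2.2-12 air mean, for the 67 members ordered by their mean difference. Replicate 2 runs above the other arrays (median 1.03), replicate 3 near 0 (median -0.06) and replicate 1 below 0 (median -0.81).

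Leaving out replicate 2 gave 0 members called higher and 10 lower in amiRAP2.2-12 (7.09% and 7.86% of all probe sets), with a median of -0.34. The 10 included CML42, AT1G72920, AT2G24600, AR781, AT4G24380, AT3G57450, AT3G23550 and AT5G39580. Leaving out replicate 1 gave 14 higher and 1 lower (7.91% and 7.36% of all probe sets), with a median of 0.51. The 14 included B120, AT4G37290, AT1G28190, AT1G11050, AT4G34150 and AT1G78410, and the 1 lower was AT5G39580. Leaving out replicate 3 gave 0 higher and 4 lower (7.23% and 7.62% of all probe sets), with a median of 0.20. The direction of the members as a group in amiRAP2.2-12 changed with the array left out, and of the named genes AT5G39580 was called lower in each of these 3 fits.

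Replicate 2 stood apart in a tissue marker too, while for the low-oxygen genes given further below replicate 1 did. PYK10, a beta-glucosidase gene known for roots and 1 of the 2 genes measured from a list of 8 markers of other tissues, was at 8.21, 3.85 and 6.76 in amiRAP2.2-12 under hypoxia, against 8.76, 8.27 and 7.76 in air. PYK10 stood at 5.10, 8.10 and 7.37 under hypoxia in HA-RAP2.12, against 7.72, 7.81 and 7.88 in air in that line. PYK10 in wild type stood at 8.74, 8.68 and 8.55 under hypoxia, against 7.84, 7.93 and 7.91 in air. AT4G11290, the other measured marker, lay near background on all 18 arrays (2.80 at most). The low PYK10 values are amiRAP2.2-12 hypoxia replicate 2 and HA-RAP2.12 hypoxia replicate 1. HA-RAP2.12 hypoxia replicate 1 was the highest of its group for 46 of 67 members. The share of all probe sets that were highest on that array was not counted, so nothing is read from the 46. The mean of the 2 measured markers was 3.01 and 3.65 on those arrays and 4.71 to 5.68 on the other 16, while 4 of 7 rosette markers, the ones measured, averaged 12.14 to 13.08 on all arrays. Whether this has a part in the members' values was not tested. With both arrays left out 48 of 67 members were called higher in HA-RAP2.12 (9.35% of all probe sets), on arrays that chose them. The members' median SD under hypoxia against air was 0.86 against 0.38 for amiRAP2.2-12, 0.28 against 0.25 for HA-RAP2.12, and 0.14 against 0.13 for wild type.

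**Figure D5:**
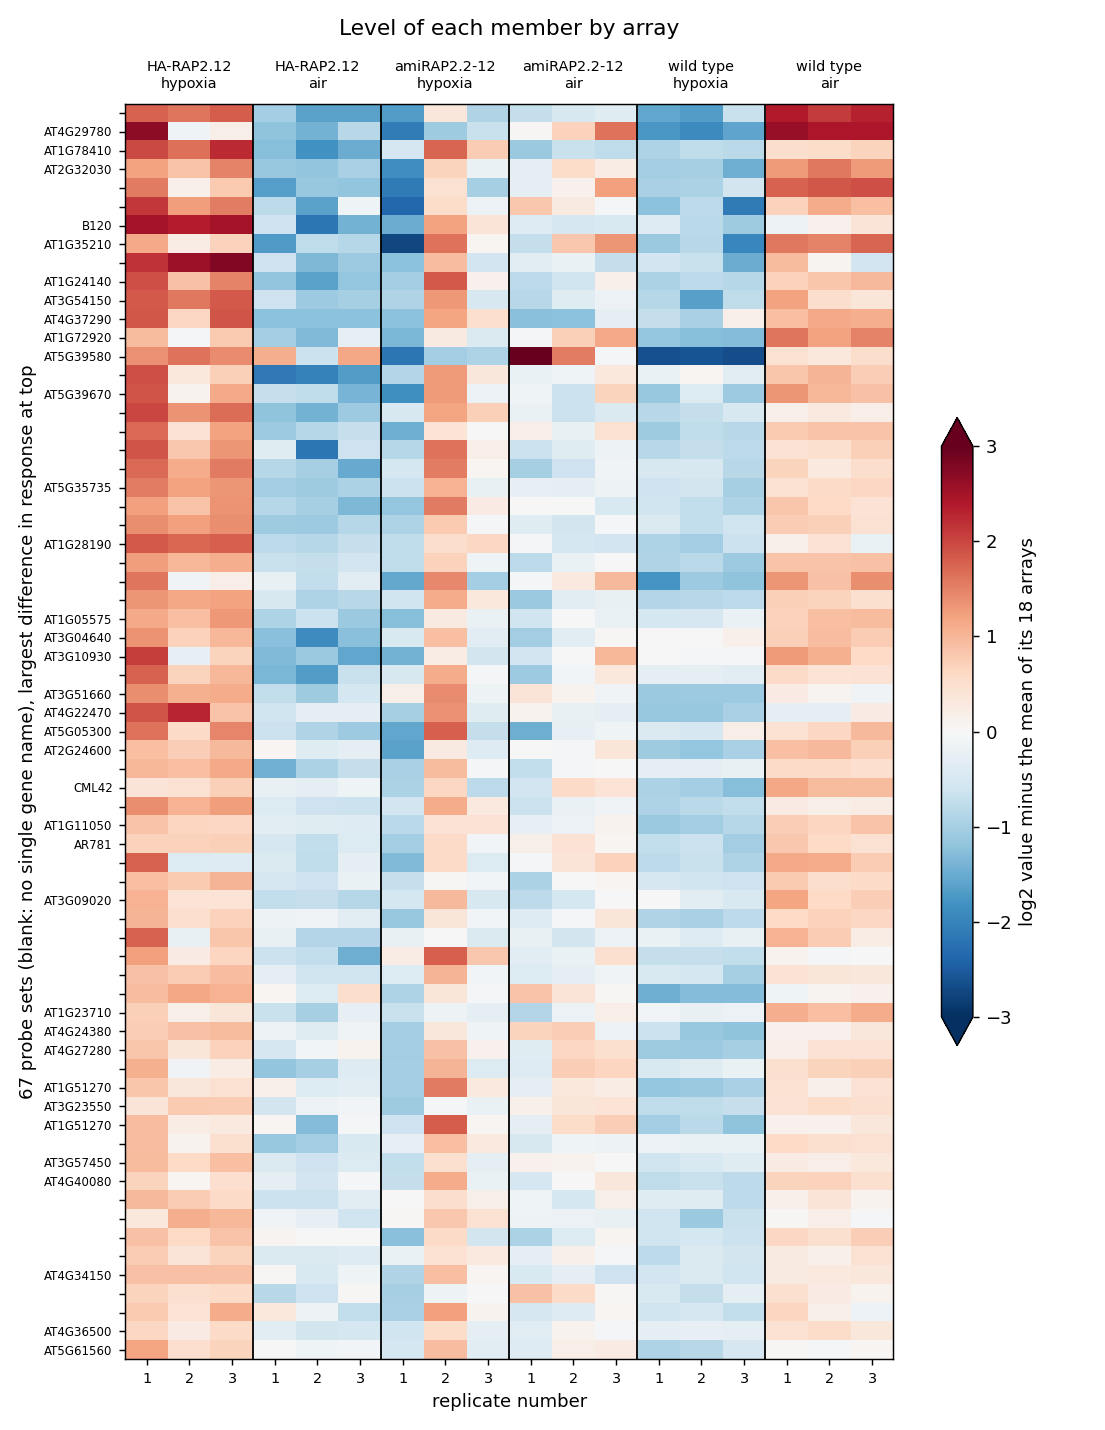
Log2 value of the 67 members (rows, largest difference in response at the top) on the 18 arrays (columns), each row centred on its own mean, red above and blue below it, the colour ending at 3. HA-RAP2.12 under hypoxia and wild type in air are red, HA-RAP2.12 in air and wild type under hypoxia blue, and amiRAP2.2-12 hypoxia replicate 2 is redder than the other 2 arrays of its group.

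Genes of rapid stress responses were taken from 8 lists (ERF and CBF factors, zinc finger regulators, WRKY factors, touch and calcium genes, jasmonate, immune receptors and kinases, immune outputs, salicylic acid). Of 127 listed genes 15 were measured by name, B120 being the only member among them and STZ and AT3G01830 being probe sets that met the limits and were set aside. In amiRAP2.2-12 3 of the 15 rose under hypoxia and 0 fell (8.04% and 8.27% of all probe sets), with a median of 0.19. In HA-RAP2.12 9 of 15 were called higher and 1 lower (10.4% and 8.95% of all probe sets), with a median of 0.89. In wild type 4 were called higher and 2 lower (11.5% and 10.3%), with a median of -0.26. Without B120, STZ and AT3G01830, which met the limits on these arrays, the counts over 12 genes were 6 higher and 1 lower in HA-RAP2.12 (median 0.75) and 4 higher and 2 lower in wild type (median 0.01). The 3 that rose in amiRAP2.2-12 were WRKY6, a defence and senescence regulator (1.52 ± 0.39, adjusted p = 0.0184), CML38, a calmodulin-like gene (1.85 ± 0.34, adjusted p = 0.00229), and GRX480, a salicylic acid-responsive glutaredoxin gene (1.85 ± 0.54, adjusted p = 0.0346, limma). That count was 1 without amiRAP2.2-12 air replicate 3 and 5 without HA-RAP2.12 hypoxia replicate 1.

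WRKY6 was higher under hypoxia in all 3 genotypes, by 2.39 in HA-RAP2.12 and 1.72 in wild type, as were CML38 (2.53 and 2.53) and GRX480 (4.05 and 4.16). These 3 genes thus lack the reversal that defines the members. By list, the measured and called genes in amiRAP2.2-12 were 1 of 3 WRKY factors, 1 of 4 touch and calcium genes and 1 of 2 salicylic acid genes. In the ERF list (1 measured, ORA47), the zinc finger list (2), the jasmonate list (1) and the immune receptor and kinase list (2), 0 were called, and 0 of the immune outputs were measured. ORA47 had 7.09, 7.38 and 6.86 under hypoxia in amiRAP2.2-12, against 8.30, 8.05 and 8.16 in air. BIK1, an immune receptor-associated kinase gene, had a difference of 0.19 ± 0.22 in amiRAP2.2-12, 0.73 in HA-RAP2.12 and -0.52 in wild type. For comparison, 13 of 13 measured low-oxygen genes rose in amiRAP2.2-12. All 13 were also higher under hypoxia in wild type, by 0.69 or more, so none of these 13 could be a member. Their mean level was 11.39, 9.52 and 9.73 on amiRAP2.2-12 hypoxia replicates 1, 2 and 3, against 11.57 to 11.72 in wild type under hypoxia. For these genes replicate 1 was the one apart, near wild type, and the cause was not tested.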

How the data were processed

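Total RNA from whole rosettes was hybridised to Affymetrix Arabidopsis Genome arrays, per the labels' protocols. The authors deposited 1 log2 value per probe set and array, made with GCRMA per the submitters' processing notes, with no version given in the sources used here. GCRMA corrects background and equalises array distributions, so dim probe sets pile up under a value of 2.5, taken here as background, and fold changes of dim genes are compressed. From these values, 64 control probe sets were dropped and 22746 were fitted with limma 3.58.1 in R 4.3.3 (6 group means, 18 arrays, eBayes). P-values were adjusted by the Benjamini-Hochberg method over all of them, with a threshold of 0.05. A positive difference is hypoxia minus air, or HA-RAP2.12 minus wild type. The fits were tested on simulated data that gave each probe set the same spread in all groups. Unequal spread between groups, as the members have, was therefore not tested. Members and lists were chosen with earlier results of these data known, and the role groups after the values were seen. Every member that names 1 gene may be named, and of the lists the genes with the smallest adjusted p in amiRAP2.2-12, together with ORA47, BIK1 and OPCL1, which were picked after their values were seen. Probe sets were named through the platform annotation: 13513 name 1 gene, 503 several, and 8730 are unlisted. Current symbols came from the TAIR10.1 gene table for 13484. Alternatives were other scalings, filters, variance options, array weights, a replicate block, arrays left out and other limits. Leaving out both arrays with low PYK10 was chosen after seeing the data.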

Additional observations from a re-analysis of the deposited data

Results flagged for a closer look

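OPCL1, a ligase gene of jasmonate synthesis and no member, had a response to hypoxia that differed between HA-RAP2.12 and wild type by 1.95 ± 0.32 (log2, SE), with an adjusted p = 0.00929 for the interaction in limma. OPCL1 stood at 9.08, 9.18 and 9.35 under hypoxia in HA-RAP2.12, against 8.52, 8.54 and 8.87 in air. In wild type OPCL1 stood at 8.10, 7.99 and 8.17 under hypoxia, against 9.53, 9.44 and 9.45 in air. All hypoxia arrays lay above all air arrays in HA-RAP2.12 and below them in wild type. The directions were those of the members, but the HA-RAP2.12 difference, 0.56 ± 0.22, was below the limit of 0.7 and not called (adjusted p = 0.1085, limma). The wild type difference was -1.39 ± 0.22 (adjusted p = 0.000586, limma). OPCL1 was not alone, as the same interaction was called higher for 266 and lower for 103 of all probe sets. The interaction ran from 1.88 to 2.06 over 27 alternatives, with adjusted p from 0.000155 to 0.0306, and its call was lost in 0.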

How the results depend on the processing

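The members are fixed by 2 round limits: 127 probe sets met limits of 0.5 and 36 met limits of 1, and leaving out 1 array gave 63 to 76. The amiRAP2.2-12 counts are small and move easily. The 4 calls (1 higher, 3 lower) became 9 (4 and 5) with a filter on dim probe sets, 11 (4 and 7) with array weights, 0 (0 and 0) with only the arrays compared, and 10 (0 and 10) with both arrays of low PYK10 left out. Calls over all probe sets moved too, from 1829 higher and 1882 lower. They were 2084 and 2192 of 13697 with the filter, and 2299 and 2259 of 22746 with array weights. With only the arrays compared they were 306 and 336, and without the low PYK10 arrays 1643 and 1776. Members chosen with limits of 0.5 gave 10 (5 and 5), those with limits of 1 gave 2, of which 1 was lower, and median centring gave 2 higher. Leaving out 1 array gave 2 to 15 calls, 0 to 14 of them higher and 1 to 10 lower, with a median difference of -0.34 to 0.51. The share of calls that were higher over all probe sets was 49.3%, and 63.2% after median centring.

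Of the comparisons that chose the members, the 43 lower in wild type became 66 with array weights, 28 with limits of 1, 25 among members that name 1 gene, and 27 to 55 with 1 array left out. Over all probe sets 2343 were called lower in wild type in the fit used above and 3481 with array weights. At the 2 ends of the range with 1 array left out there were 2002 and 2742. The 53 higher in HA-RAP2.12 became 33 with limits of 1, 26 among members that name 1 gene, and 38 to 59 with 1 array left out. At the 2 ends of that range 1761 and 2699 of all probe sets were called higher. The 14 lower in HA-RAP2.12 than in wild type in air became 27 with the filter, 49 with array weights, 37 without the low PYK10 arrays, 8 among members that name 1 gene, and 1 to 33 with 1 array left out. The calls lower in air over all probe sets moved too, from 83 of 22746. They were 145 of 13697 with the filter, 493 with array weights, 311 without the low PYK10 arrays, and 27 and 255 at the 2 ends of the range with 1 array left out. The 43 higher under hypoxia became 71 with limits of 0.5, 26 with limits of 1, 23 among members that name 1 gene, and 27 to 59 with 1 array left out. At the 2 ends of that range 213 and 844 of all probe sets were called higher. The rapid stress lists had 0 calls in amiRAP2.2-12 with only the arrays compared and 1 to 5 with 1 array left out. No result changed sign while called. The cause of these shifts was not tested, apart from the smaller or larger member sets that other limits give.

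Replicate numbers did not pair the arrays: the correlation of same-numbered deviations ran from -0.574 to 0.490, and in 0 of 15 combinations of groups was every one over 0.1. With replicate number as a block, 1 member was called higher and 2 lower in amiRAP2.2-12, and 4 lower in HA-RAP2.12 than in wild type in air. Over all probe sets the counts of that fit were 1683, 1746 and 51, in the same order.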
